A study of Homo sapiens with 6 samples.

Results

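The step described here is the change between the 6th and the 12th hour of androgen treatment in LNCaP, a line of human prostate cancer cells that responds to androgens and needs them to grow well. It compares 2 of the 6 libraries of a time course of dihydrotestosterone (DHT), the potent natural androgen. Genes entered when their counts averaged 20 or more across the 6 libraries and when they lay on a chromosome other than 4 or 15, because the 12 h library lacked reads of both. Of 17990 genes 11916 had the mean count, and after 389 genes of chromosome 4, 387 of chromosome 15 and 292 with no known chromosome were set aside, 10848 were measured. All cells had been kept for 3 days in phenol red-free RPMI 1640 with charcoal/dextran treated serum, which is depleted of steroid hormones. The 0 h library came from cells with no further treatment, and the other 5 libraries from cells given 10 nM DHT for 3, 6, 12, 24 or 48 h. Each group was 1 library of total RNA sequenced on an Illumina GAIIx, so there was no replicate spread to measure a difference against, and no p-value is given. Untreated cells at 6 and 12 h were not analysed here, so effects of DHT and of time in culture cannot be told apart.

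Androgens act through a hormone-activated transcription factor. Its direct target genes respond early, and genes that depend on newly made factors follow later. In prostate cells androgens are known to raise lipid synthesis through the sterol-regulated transcription factors SREBP, to raise polyamine synthesis, and to drive the secretory pathway of the luminal epithelial cell. They are also known to lower a separate set of genes.

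From 6 h to 12 h the genes that were higher by the most included INSIG1 of cholesterol balance, ODC1 of polyamine synthesis, CREB3L4 of the secretory pathway, the keratins KRT8 and KRT18, and the androgen targets NCAPD3 and STEAP4. The genes that were lower by the most included MMP16, PLD1, TGM3 and GLP1R. Levels are given as CPM, the count of a gene relative to the summed counts of its library, and the change as log2((CPM + 1) at 12 h over (CPM + 1) at 6 h), a scale that understates changes of low genes. By this measure 54 genes were at least 2-fold higher at 12 h (0.498% of the 10848 measured) and 91 at least 2-fold lower (0.839%). At 1.5-fold, a rule added after the data were seen, 361 genes were higher (3.33%) and 605 lower (5.58%), and 91.1% of genes stayed within it. The median change was -0.017 and the middle 90% of genes lay between -0.61 and 0.50. GDF15, KLF16 and ORM1 were just past 2-fold higher, at 1.005, 1.01 and 1.01, and OPN1SW, PPP1R13L and SEC61G just short of it, at 0.998, 0.99 and 0.98. DST, RFX3 and PDE3A were just past 2-fold lower, at -1.001, -1.01 and -1.01, and ARHGAP30, SETDB2 and STON2 just short, at -0.999, -0.997 and -0.997.

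**Figure D1:**
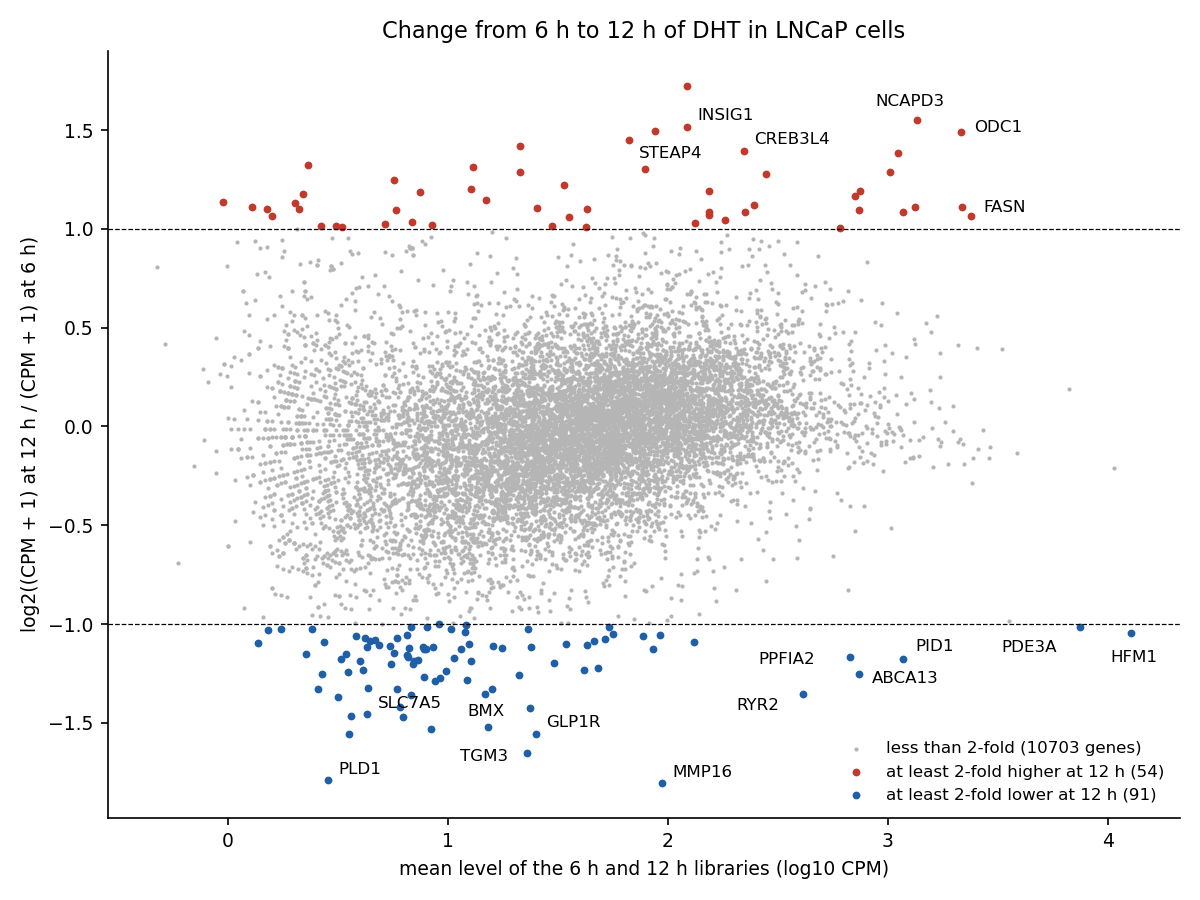
Change from 6 h to 12 h (vertical axis, log2 of the ratio of CPM + 1) against the mean level of both libraries (horizontal axis, log10 CPM), with 1 point for each of the 10848 measured genes. Red points are the 54 genes at least 2-fold higher at 12 h and blue points the 91 at least 2-fold lower, and dashed lines mark 2-fold.

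The 6 h library held 13410529 counts and the 12 h library 13627453, within a range of 13179917 to 20587956 over the time course. Where a gene had no count, a level of up to 0.224 CPM at 6 h and 0.220 CPM at 12 h (3 counts) could not be told from 0. All genes of the kept chromosomes together held 92.7% of the counts at 6 h and 96.2% at 12 h, and scaling to these alone moved the median change to -0.067. LNCaP markers were present at 6 h and 12 h, with KLK3, which encodes prostate-specific antigen, from 6232 to 7116 CPM, FOLH1, the prostate-specific membrane antigen, from 471 to 316 CPM, and the prostate homeobox gene HOXB13 from 391 to 649.9 CPM. Of 14 fibroblast markers 4 had the mean count. The summed level over all 14 was 909 CPM at 6 h and 646 CPM at 12 h, within a range of 259 to 1419 CPM over the time course. Fibronectin (FN1, from 839.7 to 582 CPM) made up most of it. COL1A1 went from 40.0 to 44.9 CPM, VIM from 24.5 to 13.8 CPM and COL3A1 from 2.16 to 2.05 CPM, and COL1A2 and POSTN were at 0 in both libraries. The part of these genes in the results was not tested. The 14 leukocyte markers summed to 20.1 and 17.2 CPM, most of it CD68 (17.2 and 13.7 CPM), with CD3D, CD3E, CD14 and FCGR3A at 0 in both. The 12 basal epithelium markers summed to 88.1 and 83.0 CPM, most of it ITGA6 (54.2 and 58.5 CPM), with CAV2 at 0 in both. The 11 neuroendocrine markers summed to 2293 and 2193 CPM, most of it SYT4 (2137 and 2027 CPM), with ENO2 at 147 and 159 CPM and DLK1 at 0 in both. In bulk RNA, fewer cells of a type and less RNA per cell cannot be told apart.

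Median levels at 12 h were 91.3 to 105% of those at 6 h on the 21 measured chromosomes with at least 100 genes. On chromosome 4 the median was 9.45% and on chromosome 15 it was 68.9%. The change also followed base composition. Across genes it rose with the GC content of the transcript (Pearson r = 0.323 over 10386 genes, which share the same libraries and are not independent replicates) and was lower in longer transcripts (r = -0.153 with log2 length). In 10 bins of genes the median change went from -0.21 at 37.4% GC to 0.12 at 64.8% GC. The change from 0 h fell with GC content at 6 h (r = -0.739) and at 12 h (r = -0.615), whereas at 3 h it rose (r = 0.227). Genes at least 2-fold higher at 12 h had a median GC content of 59.6% and those 2-fold lower 42.0%, beside 50% of all measured genes. Many gene lists below are therefore also given with the GC trend, a smooth curve of the change on GC content, removed. Where no such value is printed, the list is uncorrected. With the GC trend removed, 49 genes were 2-fold higher and 61 lower. These held 38 of the 51 and 56 of the 87 genes that passed before and had a GC value.

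**Figure D2:**
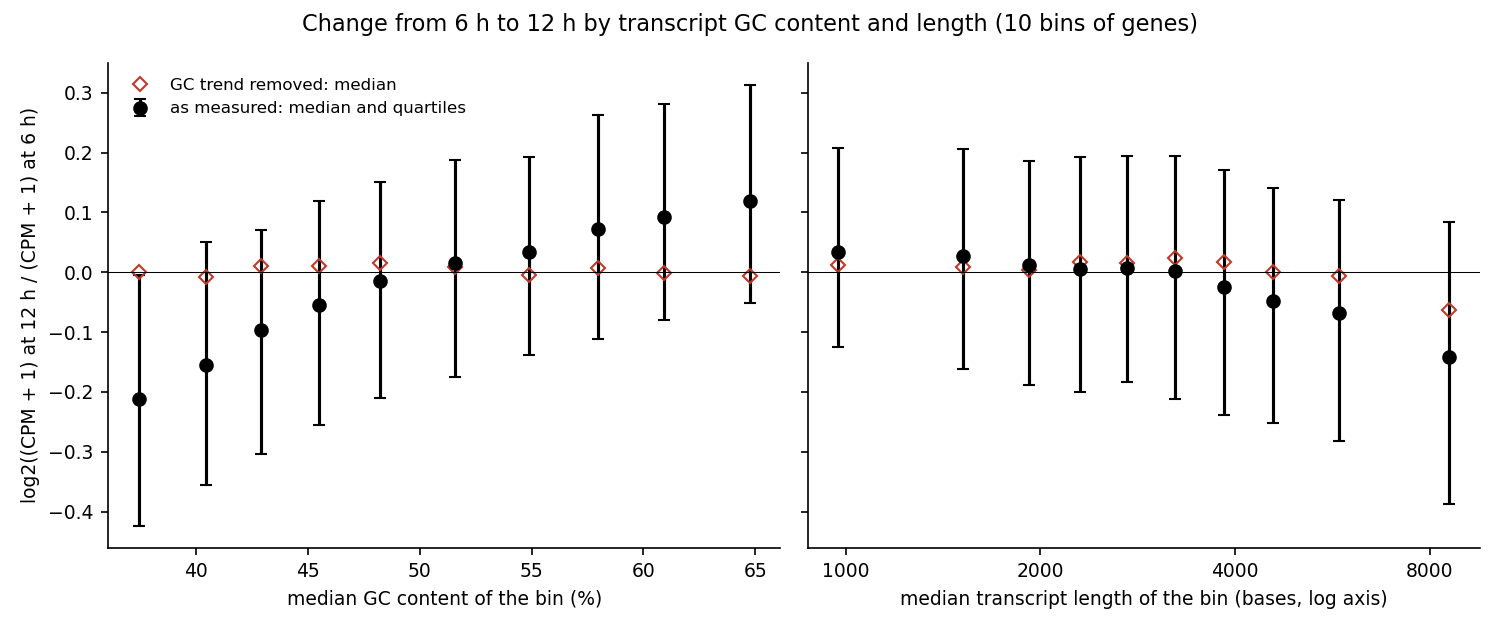
Median change from 6 h to 12 h (vertical axis, log2) in 10 bins of genes by transcript GC content (left, percent) and by transcript length (right, bases on a log axis), with bars from the lower to the upper quartile. The medians climb from -0.21 to 0.12 with GC content, and open red diamonds show them after the GC trend was removed.

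**Figure D3:**
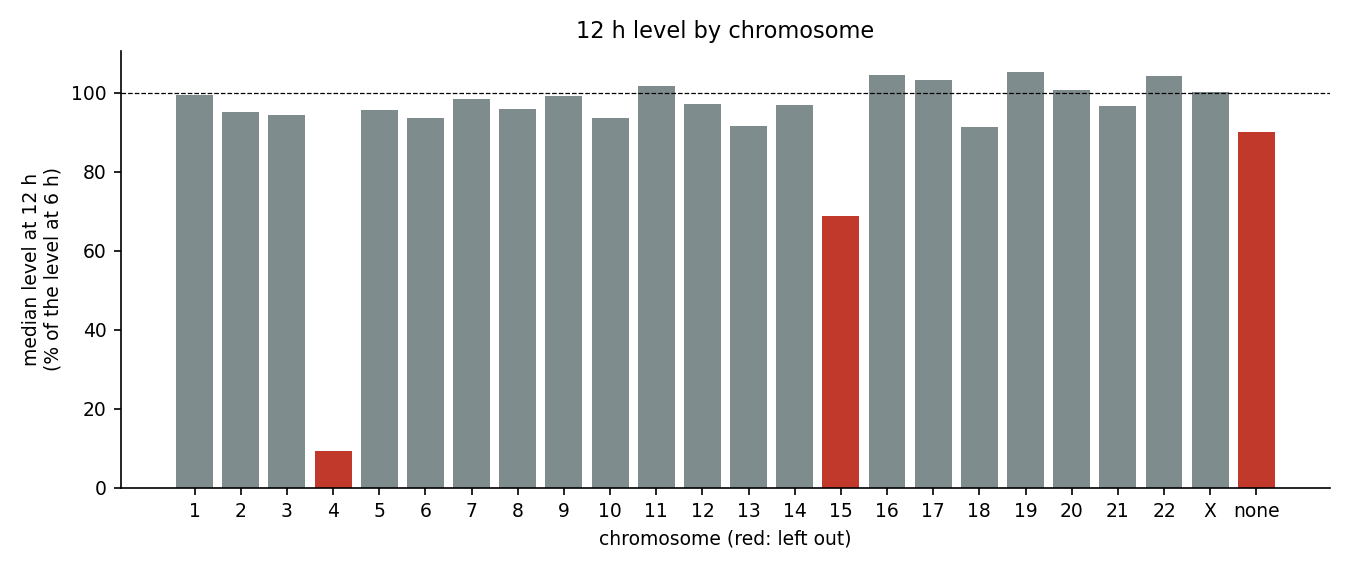
Median level at 12 h as a percentage of the level at 6 h (vertical axis) for the genes of each chromosome with the mean count (horizontal axis). Grey bars are the measured chromosomes with at least 20 such genes, between 91.3 and 105% (Y, with 4 genes, is not drawn), and red bars those left out, among them chromosome 4 at 9.45%.

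Genes of sterol and fatty acid metabolism were higher at 12 h as a group. Among the 25 genes measured for cholesterol synthesis and uptake, 3 passed 2-fold higher and 11 passed 1.5-fold higher, beside 0.498% and 3.33% of all measured genes. None was 1.5-fold lower, beside 5.58% of all measured genes. At that share a list of this size would hold few, so nothing is read from a count of none here or below. The median change was 0.53 (0.46 with the GC trend removed) beside -0.017 for all genes. INSIG1, the endoplasmic reticulum protein that holds back activation of SREBP when sterols are plentiful, had 34.98, 43.6, 63.01, 182, 231 and 473 CPM in the order of time from 0 h to 48 h, which all such values below follow. Its ratio of 12 h to 6 h, taken on CPM with nothing added, was 2.89 (95% interval 2.67 to 3.13), and this interval, like all others here, covers counting error only. It was higher at each later time than at the one before.

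Among the enzymes of synthesis, squalene synthase FDFT1 went from 267 to 511 CPM, HMG-CoA synthase HMGCS1 from 94.6 to 176 CPM and the isomerase IDI1 from 55.4 to 103 CPM, with log2 changes of 0.93, 0.89 and 0.88. With the GC trend removed HMGCS1 and IDI1 passed 2-fold, both at 1.04. The lowest of the list was SC5DL, a sterol desaturase, at -0.25.

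Of 17 genes of fatty acid synthesis and elongation 4 passed 2-fold higher and 9 passed 1.5-fold higher, beside 0.498% and 3.33% of all measured genes. None was 1.5-fold lower, beside 5.58% of all measured genes, and the median was 0.59 (0.57 with the GC trend removed). FASN, the synthase that builds palmitate, had 2368, 2645, 1549, 3242, 5609.9 and 15476 CPM. It was lower at 6 h than in any other library, and its ratio of 12 h to 6 h was 2.09 (95% interval 2.06 to 2.13). Without the GC trend its change was 0.94, short of 2-fold. Its transcript has a GC content of 65.3%, and the change from 0 h to 6 h fell with GC content, a trend that the CPM values still carry. The part of this trend in its low 6 h value was not tested. ACLY, which supplies acetyl-CoA for both pathways, had 693, 618, 474, 1014, 1164 and 941 CPM, also with its lowest value at 6 h, and a ratio of 2.14 (95% interval 2.07 to 2.202).

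FADS2, a desaturase of polyunsaturated fatty acids, had 923, 1175, 844, 1824, 3007 and 3810.3 CPM, and its ratio was 2.16 (95% interval 2.11 to 2.21). ACSL3, an acyl-CoA synthetase, had 80.3, 111, 439, 987, 1695 and 2268 CPM, so it was already raised at 6 h and its ratio in this interval was 2.25 (95% interval 2.18 to 2.32). The desaturase SCD had a log2 change of 0.71, the elongase ELOVL7 0.87 (1.06 with the GC trend removed, past 2-fold) and the acetyl-CoA carboxylase ACACA 0.41. ACACB, the carboxylase known for its part in control of fatty acid oxidation, was at -0.49, the lowest of the list.

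Polyamine synthesis was represented by 15 measured genes of the polyamine pathway and methionine cycle. Of these 3 were 2-fold higher and 4 at least 1.5-fold higher, beside 0.498% and 3.33% of all measured genes. None was 1.5-fold lower, beside 5.58% of all measured genes, and the median was 0.21 (0.27 with the GC trend removed). ODC1, ornithine decarboxylase, the first and regulated step, had 521, 859, 1134, 3188, 4585 and 2751 CPM and a ratio of 2.81 (95% interval 2.76 to 2.86). SMS, spermine synthase, had 43.2, 52.5, 98.9, 209, 274 and 204 CPM and a ratio of 2.11 (95% interval 1.98 to 2.26). Both were higher at 12 h than at 0, 3 and 6 h and had their highest value at 24 h.

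GNMT, which uses S-adenosylmethionine to methylate glycine, had 4.704, 6.87, 7.08, 19.1, 40.4 and 53.8 CPM and a ratio of 2.69 (95% interval 2.12 to 3.44). SAT1, which acetylates spermidine and spermine so that they can leave the cell, had 146, 180.2, 316, 521, 797 and 1105 CPM, with a log2 change of 0.72. Spermine oxidase SMOX was at -0.09 and the polyamine oxidase PAOX at 0.499, both within 1.5-fold. Spermidine synthase SRM was at 0.34. AMD1, which makes the aminopropyl donor, was at 0.21, and MTAP, which salvages methionine from a by-product of the pathway, at -0.38.

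**Figure D4:**
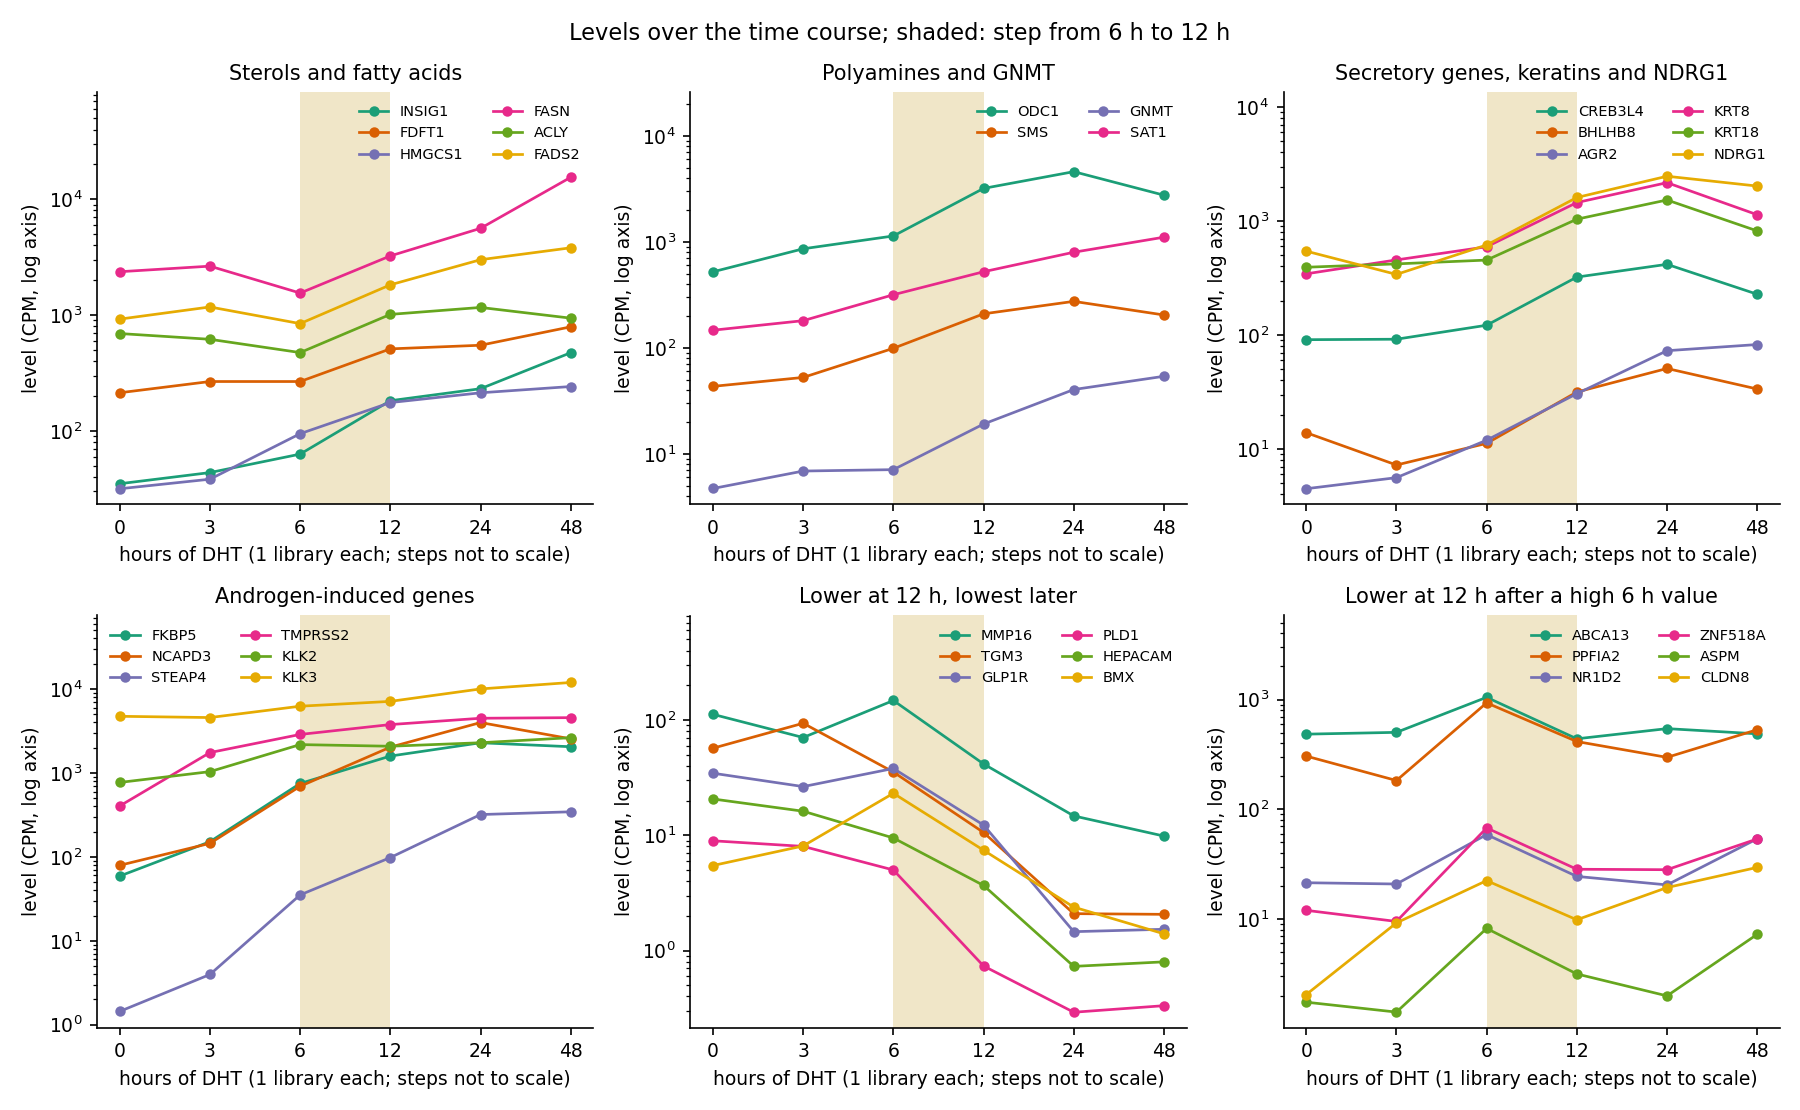
Levels of 34 genes in 6 panels (vertical axes, CPM on a log scale) from 0 h to 48 h (horizontal axes, evenly spaced), with 1 library per point and the step from 6 h to 12 h shaded. INSIG1 climbs from 63.01 to 182 CPM within the shaded interval and MMP16 drops from 148 to 41.5 CPM, while the genes of the last panel have a 6 h value above those at 3 h and 12 h.

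The secretory pathway was higher at 12 h by smaller folds spread over most of its genes. Of 32 genes of protein folding, stress and secretion in the endoplasmic reticulum 1 was 2-fold higher and 11 were at least 1.5-fold higher. Of all measured genes 0.498% and 3.33% were. In the list 30 were above 0, while the median of all measured genes was -0.017. None was 1.5-fold lower, beside 5.58% of all measured genes. The median of the list was 0.44 (0.50 with the GC trend removed). Of 31 genes of COPII, COPI and Golgi transport, which carry cargo between the endoplasmic reticulum and the Golgi, 7 were at least 1.5-fold higher, beside 3.33% of all measured genes. In this list 30 were above 0 and none passed 2-fold. None was 1.5-fold lower, beside 5.58% of all measured genes, and the median was 0.41 (0.45). With the libraries scaled to the measured chromosomes alone, 3 of these 31 were 1.5-fold higher, and with the GC trend removed 11 of 30. Under that correction 1 gene, ARF4, passed 2-fold, at 1.09.

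CREB3L4, a transcription factor anchored in the endoplasmic reticulum membrane and known in prostate as androgen-induced, had 90.9, 91.8, 122, 322, 417 and 228 CPM and a ratio of 2.65 (95% interval 2.499 to 2.802). Its first 3 values lay within 1.5-fold of each other, below all later ones. ARMET (now MANF), a secreted protein induced by endoplasmic reticulum stress, went from 163 to 304 CPM, the chaperone HYOU1 from 577 to 1028 CPM and the translocon partner SSR3 from 201 to 354 CPM, with log2 changes of 0.897, 0.83 and 0.82. The sensors of unfolded protein ERN1 and ATF6 were at -0.096 and -0.102, and the sensor EIF2AK3 at 0.37. Among genes of protein degradation from the endoplasmic reticulum, HERPUD1 was at 0.06, SEL1L at 0.21, EDEM1 at 0.38, SYVN1 at 0.51 and EDEM3 at 0.53. In transport, the small GTPase ARF4 had 0.95, KDELR2, a receptor that returns resident proteins, 0.81, the Golgi matrix protein GOLGA2 0.68 and the cargo receptor SURF4 0.62.

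Some of these folding genes share a short element in front of their start. The endoplasmic reticulum stress element is CCAAT, any 9 bases and CCACG, bound in the literature by NF-Y together with ATF6 or XBP1. In RefSeq promoters on GRCh38.p14 both strands of the 250 bases before each gene start were searched, in a search added after the data were seen. It was found in 16 of 8852 measured genes with a promoter sequence (0.181%), in 7 of 32 genes of the endoplasmic reticulum list (21.9%; CALR, CANX, CRELD2, HSP90B1, HSPA5, PDIA6 and XBP1), in 0 of 29 of the transport list, and in 0 of 42 genes 2-fold higher and 0 of 79 genes 2-fold lower. The list had been put together from genes known for this response, so the share describes the list. The windows around the element are shown for the 4 of these genes with the largest change, 5′ to 3′ on the strand of the gene, with both ends of the element in capitals; in CRELD2 it lies on the opposite strand and reads as CGTGG and ATTGG. They are CRELD2 at chr22:49918519-49918607, plus strand, XBP1 at chr22:28800570-28800656, minus strand, PDIA6 at chr2:10812818-10812906, minus strand, and HSPA5 at chr9:125241356-125241444, minus strand.
CRELD2: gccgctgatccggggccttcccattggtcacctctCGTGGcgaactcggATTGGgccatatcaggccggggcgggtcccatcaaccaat
XBP1: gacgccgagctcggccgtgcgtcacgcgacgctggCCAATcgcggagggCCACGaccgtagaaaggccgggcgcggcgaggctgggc
PDIA6: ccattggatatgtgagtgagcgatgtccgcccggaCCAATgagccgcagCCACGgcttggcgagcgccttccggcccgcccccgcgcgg
HSPA5: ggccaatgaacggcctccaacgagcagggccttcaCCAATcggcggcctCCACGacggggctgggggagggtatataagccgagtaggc
CRELD2, a folding factor of the endoplasmic reticulum, had 78.7, 84.6, 87.5, 152, 153 and 83.4 CPM. XBP1, the transcription factor activated by splicing of its own RNA, had 221, 249.9, 226, 331, 399 and 273 CPM. PDIA6, a disulfide isomerase, had 319, 351, 321, 460.1, 439.6 and 369.7 CPM. All 3 were higher at 12 h than at any earlier time, with log2 changes of 0.79, 0.55 and 0.52. The central chaperone HSPA5 had 749.9, 917, 1113, 1512, 1253 and 878 CPM, with its maximum at 12 h and a log2 change of 0.44. A match of letters is no evidence that a factor was bound in these cells.

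Secretory and luminal genes outside those lists were among those with the largest changes. BHLHB8 (now BHLHA15), a transcription factor of secretory cells, had 13.9, 7.23, 11.2, 31.6, 50.8 and 33.6 CPM and a ratio of 2.82 (95% interval 2.34 to 3.42). AGR2, a disulfide isomerase family member of mucus-making epithelia, had 4.48, 5.598, 11.9, 30.5, 72.8 and 82.4 CPM and a ratio of 2.56 (95% interval 2.13 to 3.09). AGR2 was higher at every time than at the one before, whereas BHLHB8 had its lowest value at 3 h. C17orf28 (now HID1), known for its part in making secretory granules, had 272, 252, 163, 397, 566 and 410.3 CPM and a ratio of 2.43 (95% interval 2.32 to 2.56).

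KRT8 and KRT18, the keratin pair of simple and luminal epithelium, changed alike. KRT8 had 344, 456, 594, 1451, 2169.6 and 1135 CPM and a ratio of 2.44 (95% interval 2.38 to 2.51). KRT18 had 393, 420.4, 454, 1037, 1529 and 819 CPM and a ratio of 2.28 (95% interval 2.22 to 2.35). Both had their maximum at 24 h and were lower again at 48 h. Processed copies of both genes exist in the genome, so their counts are uncertain where reads could be shared. Of 15 luminal lineage factors, a list that holds both keratins and CREB3L4, these 3 were 2-fold higher and 4 were 1.5-fold higher. Of all measured genes 0.498% and 3.33% were. The median of the list was 0.35 (0.25 with the GC trend removed), and 1 was 1.5-fold lower, beside 5.58% of all measured genes. The lower one was GRHL2, a transcription factor of epithelial junctions, which had 141, 387, 846, 477, 397 and 301 CPM.

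Androgen-induced genes had a median change of 0.42 (0.46 with the GC trend removed). Of the 37 measured 9 were 2-fold higher and 16 at least 1.5-fold higher, beside 0.498% and 3.33% of all measured genes. None was 1.5-fold lower, beside 5.58% of all measured genes. This list and that of the androgen-repressed genes were partly drawn from earlier results of these libraries, so neither is independent evidence of its direction. NCAPD3, a subunit of condensin II, had 79.3, 145, 692, 2028, 3982 and 2547 CPM and a ratio of 2.93 (95% interval 2.86 to 2.998). STEAP4, a metalloreductase of the cell membrane, had 1.44, 3.97, 35.2, 98.04, 319 and 344 CPM and a ratio of 2.79 (95% interval 2.51 to 3.1002). FKBP5, which works with HSP90 on steroid receptors, had 59.03, 152, 748, 1588, 2286 and 2050.4 CPM and a ratio of 2.12 (95% interval 2.07 to 2.17). All 3 were far above 0 h by 6 h and again 2-fold higher 6 hours later.

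NDRG1, induced by androgen and by stress, had 544, 339.8, 616, 1607, 2469.8 and 2025 CPM and a ratio of 2.61 (95% interval 2.54 to 2.68). Its 6 h value was close to that at 0 h. DBI, which binds acyl-CoA esters, had 36.95, 59.6, 119, 246, 351 and 326 CPM and a ratio of 2.07 (95% interval 1.95 to 2.203). Other known targets, TMPRSS2, KLK2 and KLK3, stayed within 1.5-fold in this interval. TMPRSS2, a serine protease of prostate epithelium, had 404, 1747, 2873, 3767, 4479 and 4554 CPM and a log2 change of 0.39. KLK2 had 770.1, 1036, 2175, 2078, 2288 and 2628 CPM and a log2 change of -0.07, and KLK3 4727, 4566, 6232, 7116, 10012 and 11949.9 CPM and 0.19; they are close paralogs, and how shared reads were counted is not known. Of the list 28 of 37 were above 0, while the median of all measured genes was -0.017. STEAP2 was the lowest, at -0.51, from 1218 to 853 CPM.

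Other genes among the 20 largest increases had varied roles. MICAL1, a monooxygenase that takes actin filaments apart, had 28.9, 30.1, 45.3, 129, 290.3 and 263 CPM and a ratio of 2.86 (95% interval 2.61 to 3.14). RUSC1 had 57.2, 65.9, 44.9, 112, 97.1 and 52.3 CPM and the ubiquitin ligase TRIM3 20.1, 17.4, 19.9, 47.8, 56.4 and 48.1 CPM. SLC9A3R2, a scaffold of membrane transporters, had 144, 136, 93.9, 215, 197 and 179 CPM. MICAL1 had higher values still at 24 and 48 h, while SLC9A3R2 and RUSC1 had their highest value at 12 h. SOX9, a transcription factor of epithelial progenitors, had 20.3, 9.57, 7.31, 18.1, 47.9 and 48.4 CPM: it was lowest at 6 h, and its higher value at 12 h was a return to the level of 0 h. The calcium channel genes CACNA1I and CACNA1A were low throughout: CACNA1A had 2.12, 5.598, 2.98, 8.44, 1.07 and 1.46 CPM, with its maximum at 12 h, and CACNA1I 1.59, 3.76, 0.895, 3.74, 0.437 and 0.798 CPM, with about equal values at 3 and 12 h.

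Androgen-repressed genes were lower at 12 h, with 7 of 19 at least 2-fold lower and 15 at least 1.5-fold lower. Of all measured genes 0.839% and 5.58% were. None of the list was 1.5-fold higher, beside 3.33% of all measured genes, and the median was -0.80. With the GC trend removed 3 of 18 were 2-fold lower and 12 were 1.5-fold lower, with a median of -0.76, and OPRK1, LRRN1, SI and BCHE fell short of 2-fold, at -0.96, -0.99, -0.91 and -0.89. TGM3, a transglutaminase of epithelia, had 56.9, 93.7, 35.3, 10.6, 2.09 and 2.06 CPM and a ratio of 0.299 (95% interval 0.246 to 0.361). GLP1R, the receptor of glucagon-like peptide, had 34.5, 26.4, 37.96, 12.3, 1.46 and 1.53 CPM and a ratio of 0.323 (95% interval 0.269 to 0.385). For GLP1R the 3 values up to 6 h all lay above the 3 from 12 h on. HEPACAM, a cell adhesion molecule, had 20.6, 16.2, 9.47, 3.67, 0.729 and 0.798 CPM and a ratio of 0.387 (95% interval 0.274 to 0.541).

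The kappa opioid receptor OPRK1 went from 2.39 to 0.6604 CPM, and LRRN1, a leucine-rich repeat membrane protein, from 105 to 49.8 CPM. DDC, DOPA decarboxylase, had 131, 159, 101, 56.3, 5.003 and 1.79 CPM, and CXCR7 (now ACKR3), an atypical chemokine receptor, 522, 295, 137, 70.2, 29.9 and 52.97 CPM; their log2 changes of -0.83 and -0.96 were past 1.5-fold and short of 2-fold. SI, sucrase-isomaltase, had 19.5, 12.4, 47.6, 21.6, 3.74 and 0.9304 CPM. It was higher at 6 h than at 0 h, so its lower value at 12 h followed a maximum. MYC, which was at 398 CPM at 0 h, had the same level at 6 h and 12 h, from 119.7 to 120.4 CPM, a log2 change of 0.01.

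The gene with the largest decrease was MMP16, a metalloproteinase of the cell membrane, with 112, 70.4, 148, 41.5, 14.7 and 9.84 CPM and a ratio of 0.281 (95% interval 0.256 to 0.309). PLD1, a phospholipase that makes phosphatidic acid, had 8.95, 8.01, 4.996, 0.734, 0.291 and 0.332 CPM and a ratio of 0.147 (95% interval 0.0674 to 0.287). Both had their lowest values at 24 or 48 h. BMX, a tyrosine kinase of the TEC family, had 5.46, 8.08, 23.1, 7.41, 2.38 and 1.396 CPM, with its highest value at 6 h and its lowest at 48 h. The lipid transporter ABCA12 had a log2 change of -1.53, the adrenergic receptor ADRA1A -1.47, the mannosidase MAN1A1 -1.42 and the tyrosine phosphatase PTPRR -1.35, each with at most 21.6 CPM in all 6 libraries. Genes that were lower tended to be long and low: their median transcript length was 4115 bases and 40.7% were below 10 CPM at both times, beside 2961.5 bases and 17.4% of all measured genes. For genes 2-fold higher the median length was 2453 bases and 27.8% were below 10 CPM.

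The levels at 0 h and 6 h placed the genes past 2-fold into time patterns. A late start, within 1.5-fold of 0 h at 3 and 6 h and past 2-fold from 0 h at 24 and 48 h, was seen in 7 genes that were higher (among them CREB3L4, GNMT, TRIM3, KRT18, B3GAT1 and FADS2) and 6 that were lower (GLP1R, NWD1, FRMPD2, TLR5, STXBP6 and SLC44A1). A change past 2-fold by 6 h that went on past 2-fold in the same direction was seen in 12 genes that were higher (NCAPD3, ODC1, STEAP4, AGR2, ACSL3, KLF4, FKBP5, SMS, DBI, GLYATL2, NPPC and ORM1) and 4 that were lower (DIO3, HEPACAM, OR51E1 and OPRK1). SLC44A1, a choline transporter, had 142, 113, 124, 59.4, 34.9 and 43.5 CPM and was the late gene with the highest counts among those that were lower; with the GC trend removed its change was -0.88, short of 2-fold. KLF4, a zinc finger transcription factor, had 3.87, 5.95, 8.87, 20.8, 32.4 and 26.5 CPM.

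Among the 91 lower genes 42 (46.2%) had been at least 2-fold above 0 h at 6 h, and 27 of these 42 were within 1.5-fold of 0 h at 12 h. Of all measured genes 1622 (14.95%) were at least 2-fold above 0 h at 6 h. The 6 h library enters both the rise and the drop, so genes high in that library are favoured in this pattern, and nothing is read from the difference between the shares. ABCA13, a very long transporter of the ABC family, had 484, 502, 1048, 439, 543 and 487 CPM and a ratio of 0.419 (95% interval 0.406 to 0.431). PPFIA2, a liprin of synaptic contacts, had 305, 183, 932, 414, 297 and 531 CPM. ASPM, a spindle protein, had 1.75, 1.42, 8.203, 3.16, 1.99 and 7.24 CPM. In each of these the 6 h value was the highest of the 6.

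Of the 42 genes of this pattern 38 had a GC value. With the GC trend removed from the change to 6 h and from the step, 8 genes showed the pattern. These were fewer than the 12 lower genes with a late start under the same correction. CLDN8, a tight junction protein, was among the 42 and stayed above 0 h, with 2.05, 9.21, 22.4, 9.83, 19.3 and 29.5 CPM. Of the genes that were higher, 8 of 54 had been 2-fold below 0 h at 6 h, beside 342 of all measured genes (3.15%). The 6 h library enters both the drop and the rise, so nothing is read from this difference either. These 8, SOX9, NEURL, SHANK1, RAP1GAP, CRIP2, PALM, KLF16 and GDF15, were within 1.5-fold of 0 h at 12 h. Of the 8, 7 had a GC value, and with the GC trend removed 1 gene showed the pattern. GDF15, a secreted stress cytokine, had 894, 598, 405, 814, 2324 and 4659 CPM. With the GC trend removed its change was 0.89, short of 2-fold.

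Ribosomal protein, oxidative phosphorylation, DNA replication and proteasome genes had few or no members past 1.5-fold. Of all measured genes 3.33% were 1.5-fold higher and 5.58% lower. None of 38 cytosolic ribosomal protein genes and none of 38 genes of oxidative phosphorylation passed 1.5-fold, with medians of -0.034 and 0.039 and ranges of -0.20 to 0.14 and -0.26 to 0.36. The 40 genes of DNA replication had a median of 0.05. The 1 member past 1.5-fold was CDC25A, a phosphatase that lets cells enter S phase, at 0.67, beside 3.33% of all measured genes higher. With the GC trend removed 2 of 38 were 1.5-fold higher. Of 29 mitotic genes 1 was 2-fold lower and 3 were 1.5-fold lower (ASPM, CENPF and NUF2), beside 0.839% and 5.58% of all measured genes. The mitotic median of -0.20 was -0.07 with the GC trend removed, when ASPM was at -0.93 and none was 2-fold lower. The 29 proteasome subunits had a median of 0.19, beside -0.017 for all measured genes, with 26 above 0 and none past 1.5-fold. With the GC trend removed 2 passed it, PSMA5 and PSMA6, at 0.59 and 0.62.

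Genes of amino acid supply lay near or below the median of all genes. A list of 24 measured genes held ATF4, the transcription factor of amino acid shortage, with targets of it and genes of serine synthesis. Its median was -0.18. At 1.5-fold 3.33% of all measured genes were higher and 5.58% lower. Of these 24 none was higher and 2 were lower (1 of 23 with the GC trend removed). The larger of these was PSAT1, of serine synthesis, which had 114, 114, 149.5, 80.8, 195 and 137 CPM. Among 16 amino acid transporters SLC7A5, the large neutral amino acid carrier, had 12.9, 12.97, 6.79, 1.83, 6.27 and 5.45 CPM and was lowest at 12 h, with a ratio of 0.2704 (95% interval 0.166 to 0.425). SLC1A5, the glutamine carrier, had 115, 117, 78.9, 133, 319 and 231 CPM and a log2 change of 0.75.

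**Figure D5:**
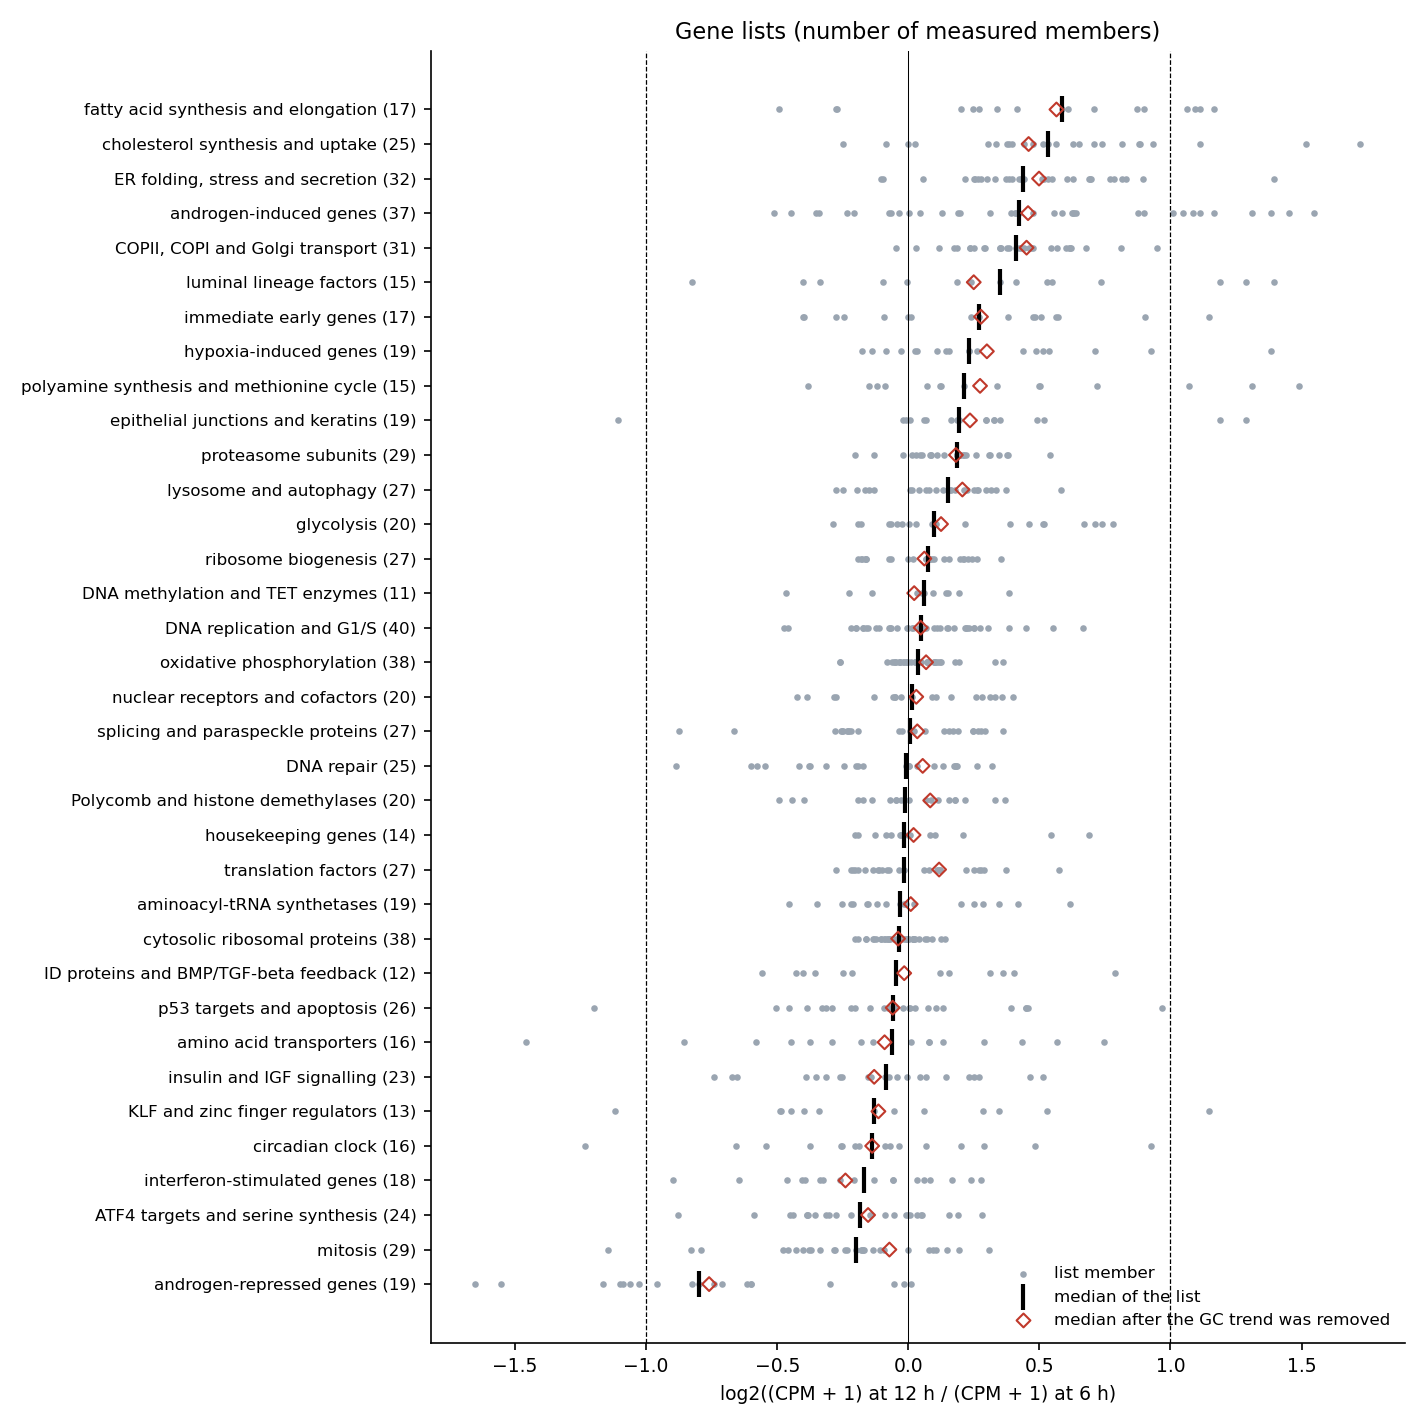
Change from 6 h to 12 h (horizontal axis, log2) of the members of each gene list with at least 5 measured genes (vertical axis, number measured in parentheses), with 1 grey point per gene, a black bar at the median and an open red diamond at the median after the GC trend was removed. The lists of fatty acids (0.59), cholesterol (0.53), endoplasmic reticulum (0.44) and androgen-induced genes (0.42) lie highest and the androgen-repressed genes (-0.80) lowest.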

How the data were processed

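The deposited table gave, for each RefSeq transcript and library, a count of tags and an RPM value, which the file headers call ppm and which the authors had scaled to the reads of the library. The submitters' processing notes name hg19; which aligner and counter were used, and whether strand was, is not given in the sources used here. Of 18051 lines 50 repeats were dropped, and counts of 1 symbol were added and scaled to CPM (pandas 2.3.3). Chromosomes came from a RefSeq table and promoters from RefSeq (GRCh38.p14), and GC content and length from GENCODE transcripts on GRCh38, for 95.7% of measured genes; builds differ, so no gene coordinates of the files are given. Ratios have exact conditional binomial intervals (95%, scipy 1.17.1), for counting error only. The GC trend was a lowess curve (span 0.3, statsmodels 0.14.6). Alternatives were other scalings (edgeR 4.0.16 TMM factors, median of ratios, the deposited RPM), pseudocounts, count minimums and chromosome filters. The script was tested on simulated data. Named were the 20 largest changes per direction, up to 4 members per list, up to 10 genes per time pattern, KLK2, KLK3, TMPRSS2 and FKBP5; other genes stand as list members, markers or threshold neighbours, or are said to be chosen later. The genes measured, the 39 lists and the rules were chosen with earlier results of these data known. Some genes of the lists are not reported here.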

Additional observations from a re-analysis of the deposited data

How the results depend on the processing

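Each value rests on 1 library a side, and depth limits low genes most. The counts of 54 higher and 91 lower genes were within 1.5 times under TMM factors, median of ratios, the deposited RPM, scaling to the measured chromosomes and no count filter. They were 106 and 153 with a pseudocount of 0.1, and 27 and 23 with a pseudocount of 5, where 217 and 243 passed 1.5-fold and 54% of the genes past 2-fold were higher in place of 37.2%. With a mean count of 100, 45 genes were 2-fold and 360 were 1.5-fold lower; with all chromosomes kept, 655 and 1217. Of 76 named genes past 2-fold, 36 stayed past it with a pseudocount of 5, 70 to 74 under the 4 alternative scalings, and 57 of 71 with the GC trend removed. Transport genes 1.5-fold higher were 3 when scaled to the measured chromosomes and 11 with the GC trend removed.

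The time patterns moved too; genes that turned back had been 2-fold off 0 h the other way at 6 h. With a pseudocount of 0.1 there were 12 late and 23 continued higher genes, 25 that turned back, and 12 late, 9 continued and 68 lower genes that turned back. With a pseudocount of 5 there were 7 continued higher genes and 0 that turned back, and 2 late, 0 continued and 8 lower genes that turned back. Higher genes that turned back were 4 when scaled to the measured chromosomes, 5 with a mean count of 100 and 1 with the GC trend removed; lower genes that turned back were 19 and 8 in the last 2, and late lower genes 12 in the last. The median of the fibroblast markers was 0.16 with no count filter, from -0.29.

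In place of 6 h, 3 h (chosen after seeing the data) gave 1939 genes 2-fold higher and 250 lower, 3345 and 1275 at 1.5-fold, and 34 androgen-induced, 25 endoplasmic reticulum, 18 transport and 8 polyamine genes 1.5-fold higher. Changes reversed for ASPM (0.78), CACNA1I (-0.0039), CAPS2 (0.29), CLDN8 (0.085), DNAH8 (0.70), DST (0.92), NEURL (-0.17), NR1D2 (0.22), PALM (-0.42), RANBP3L (0.66), SI (0.76), ZBBX (0.78), ZBTB20 (1.19) and ZMAT1 (0.38). In place of 12 h, 24 h (also chosen later) gave 174 and 654 genes, 592 and 2204 at 1.5-fold, and 25 androgen-induced, 18 endoplasmic reticulum and 19 transport genes; CACNA1A (-0.95), CACNA1I (-0.40), NEURL (-0.27) and PALM (-0.16) reversed. These substitutions change the hours compared as well as the library; the cause of the other differences was not tested.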

Other observations

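Glycolytic and hypoxia-responsive genes moved unevenly. The 20 glycolytic genes had a median of 0.10. At 1.5-fold 3.33% of all measured genes were higher and 5.58% lower. Of these 20 none was lower and 4 were higher (5 of 19 with the GC trend removed). The hexokinases, which trap glucose in the cell, were among them: HK1 had 148, 147, 104, 173, 215 and 227 CPM and HK2 72.99, 35.1, 73.9, 128, 117 and 103 CPM. The kinase PFKFB2, which raises the activator of glycolysis fructose 2,6-bisphosphate, had 43.5, 58.95, 112, 179, 196 and 231 CPM, with log2 changes of 0.74, 0.78 and 0.67 for these 3. Of 19 hypoxia-induced genes 1 was 2-fold higher (NDRG1) and 3 were 1.5-fold higher, beside 0.498% and 3.33% of all measured genes. Their median was 0.23. With the GC trend removed 5 of 18 were 1.5-fold higher and the median was 0.30.

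Of 16 circadian regulators 5 were above 0 and 11 below, with a median of -0.14. At 1.5-fold 1 was higher and 2 were lower, beside 3.33% and 5.58% of all measured genes. BHLHB2 (now BHLHE40), a repressor of the clock, had 87.6, 17.2, 25.2, 48.7, 36.04 and 44.8 CPM and a log2 change of 0.92. The nuclear receptor NR1D2 had 21.4, 20.8, 58.8, 24.4, 20.4 and 53.8 CPM and -1.23 (-1.05 with the GC trend removed). HLF was at -0.66, and PER3, within 1.5-fold, at -0.54. Of 26 p53 targets and genes of apoptosis 1 was 1.5-fold higher and 1 was 1.5-fold lower, beside 3.33% and 5.58% of all measured genes. The median was -0.06, and nothing is read about the list. The higher gene was CDKN1A, an inhibitor of the cell cycle, with 221, 205, 126, 247, 242 and 198 CPM. PMAIP1, a BH3-only protein, was 2-fold lower, with 0.683, 3.97, 10.1, 3.82, 5.25 and 5.72 CPM. With the GC trend removed its change was -0.99, just short of 2-fold. Among 17 immediate early genes KLF4 was 2-fold higher and NR4A1, an orphan nuclear receptor, 1.5-fold higher, with 35.1, 42.8, 78.9, 148, 146 and 133 CPM. Of all measured genes 0.498% were 2-fold and 3.33% were 1.5-fold higher. Of 23 genes of insulin and IGF signalling none was 1.5-fold higher and 3 were 1.5-fold lower, beside 3.33% and 5.58% of all measured genes. The 3 were PIK3CA, PIK3R1 and IGFBP3, at -0.74, -0.67 and -0.65, and with the GC trend removed 1 of 21 was 1.5-fold lower. The median of the list was -0.087. Its highest member was FRAP1 (now MTOR), the growth-controlling kinase, with 181, 221, 307, 439.8, 766 and 646 CPM and a log2 change of 0.52.

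A few genes with very many counts had log2 changes between -0.99 and -1.18, and were chosen after their values were seen. With the GC trend removed their changes lay between -0.79 and -1.14. Other genes with very many counts changed less, among them EEF2 (from 11455 to 9893 CPM, -0.21) and KLK3 (from 6232 to 7116 CPM, 0.19). Nothing is therefore read about such genes as a group. HFM1, a helicase known from meiosis, had 11232, 11853, 17203, 8329, 7647 and 8080.1 CPM and a log2 change of -1.05 (-0.79 with the GC trend removed). PDE3A, a phosphodiesterase, had 5965, 7213, 10031, 4969.7, 4548 and 5518 CPM and -1.01 (-0.91). SLCO5A1, a transporter family member, had 3369.98, 3616, 4713, 2377, 2622 and 2748 CPM and -0.99 (-0.896), and PID1, an adaptor of insulin signalling, 1182, 1177, 1633, 720.5, 814 and 1066 CPM and -1.18 (-1.14). Each had its highest value at 6 h and a 12 h value below that of 0 h. Whether all of these reads came from the named genes was not tested.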
